A study of Mus musculus with 12 samples.

Results

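The LIM homeobox genes examined here are Lhx1, Lhx2, Lhx3, Lhx4, Lhx5, Lhx8, Lhx9, Isl1, Isl2 and Lmx1b, 10 of the 24946 genes in the expression table, chosen by name and read over embryoids and controls at D7 and D8. Embryoids were made from mouse ESC by merging, at day 3, an untreated aggregate started from 100 cells with an aggregate started from 50 cells and exposed to BMP4 for 8 h (10 ng/ml by the labels, while the methods give the dose in µg/ml). Controls were made by merging untreated aggregates of the same sizes on the same day. Both were cultured without further treatment to D7 or D8, and each of the 4 groups (D7 embryoids, D7 controls, D8 embryoids, D8 controls) holds 3 libraries of pooled aggregates, 12 per pool by the labels, a number that the methods give differently. All libraries are labelled as E14TG2a, an ESC line of the 129/Ola strain, so that every comparison rests on what is labelled as a single line, although the short library descriptions begin with WT for controls and with E14 for embryoids. Hprt, a gene of purine salvage that was picked out once its values had been seen, stood at 1, 1 and 1 in D7 embryoids, against 35, 34 and 36 in D7 controls, and at 0, 0 and 1 in D8 embryoids, against 35, 33 and 32 in D8 controls. A difference of line or clone between embryoids and controls and the BMP4 instruction therefore cannot be told apart in any value below.

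LIM homeodomain proteins carry a pair of zinc-binding LIM domains and a DNA-binding homeodomain. Their LIM domains bind LDB proteins, which join LIM homeodomain proteins into larger complexes, and the LIM-only proteins compete for the same LDB surface. The combination of family members in a cell is known to help set its identity, above all in the nervous system: Lhx2 in eye field and cortex, Lhx1 and Lhx5 in the forebrain and in interneurons, Lhx3, Lhx4, Isl1 and Isl2 in motor neurons. Outside the nervous system Isl1 marks the second heart field, Lhx1 the head organizer and intermediate mesoderm, and Lmx1b the dorsal limb.

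Promoters of 3 members are shown for comparison, those of the related genes Lhx2 and Lhx9, which were low in embryoids, and that of Isl1, which was high in them. RefSeq windows of GRCm38.p6, the assembly that mm10 names, were found for 9 of the 10 members (11 windows of 300 bases, from 250 before to 50 after a start); Lhx5 had none. Capitals mark every match on either strand to the homeodomain core TAATTA, to the OTX core, which is GGATTA, to the TATA box, taken as TATAAA, to the CCAAT box or to the GC box, taken as GGGCGG.
Lhx2, first start, chr2:38339031-38339330, plus strand: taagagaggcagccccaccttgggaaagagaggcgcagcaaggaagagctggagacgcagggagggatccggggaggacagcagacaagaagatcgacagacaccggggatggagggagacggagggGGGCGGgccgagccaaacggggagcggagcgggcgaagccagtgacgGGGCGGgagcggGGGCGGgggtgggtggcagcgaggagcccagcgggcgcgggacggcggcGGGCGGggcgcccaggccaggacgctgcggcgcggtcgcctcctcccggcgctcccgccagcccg
Lhx9, chr1:138842395-138842694, minus strand: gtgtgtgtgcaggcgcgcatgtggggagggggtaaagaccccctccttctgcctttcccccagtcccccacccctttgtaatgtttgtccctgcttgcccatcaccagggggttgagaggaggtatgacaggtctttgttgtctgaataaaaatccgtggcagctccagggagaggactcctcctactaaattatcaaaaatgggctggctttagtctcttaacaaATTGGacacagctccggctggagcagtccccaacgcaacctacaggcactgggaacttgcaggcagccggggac
Isl1, chr13:116309639-116309938, minus strand: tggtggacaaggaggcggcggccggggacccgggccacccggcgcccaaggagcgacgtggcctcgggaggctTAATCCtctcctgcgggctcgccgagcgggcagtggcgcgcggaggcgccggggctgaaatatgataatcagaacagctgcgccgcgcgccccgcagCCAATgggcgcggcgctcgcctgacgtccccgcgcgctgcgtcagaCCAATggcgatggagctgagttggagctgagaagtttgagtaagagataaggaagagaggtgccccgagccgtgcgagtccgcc
The Lhx2 window had 4 GC boxes and was 74.7% G and C. The Lhx9 window had 1 CCAAT match and was 55.3% G and C. The Isl1 window had 2 CCAAT matches and 1 GGATTA match and was 69.0% G and C. TAATTA was in none of the 11 windows of the members and in 5.29% of the 32851 mouse windows, GGATTA was in 7.06%, TATAAA in 13.6%, CCAAT in 37.4% and GGGCGG in 35.7%. These matches describe letters in a short window and no factor was measured at them.

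The values are taken to be TPM rounded to whole numbers, a scale that is corrected for gene length, so levels of different genes can be set side by side. Each library summed to between 997897 and 998433. Sequencing depth is unknown on this scale, a value of 1 can stand for anything from about 0.5 to 1.5, and Tgoln2, a Golgi gene of most cells that was likewise picked out, stood at 29, 0 and 30 in D7 embryoids, so a member at 0 is only described as listed at 0. Differences were tested with limma on log2(value + 1) and called where the adjusted p was under 0.05 and the log2 fold change was above 1 or under -1. The scale understates folds of low genes. Of the 10 members, 8 passed the filter, which asks that the mean of some group exceed 1, and Lhx8 and Isl2 did not. Lhx3 and Lhx4 passed only through the D8 embryoids, the group in which they were highest, so their difference was fixed by the filter and is given as values with no test. Isl1 and Lmx1b passed only through embryoids, which fixed the direction of their difference from controls, so it is described without a p. Lhx1, Lhx2, Lhx5 and Lhx9 also passed through controls. The same filter stands behind the gene lists below, whose counts cover only the genes that passed it in some group, and those counts are given as descriptions. A listed gene that passed only through embryoids, or only through controls, had the direction of its difference fixed in the same way. Cytosolic ribosomal protein genes took 16.1 to 18.7% of the total in D7 embryoids, against 12.8 to 13.4% in D7 controls, and 15.6 to 16.4% in D8 embryoids, against 10.7 to 11.2% in D8 controls. Over all 13751 tested genes, embryoids differed from controls by a median of -0.20 (log2) at D7 and of -0.18 at D8. Scaling by median-of-ratios moved it to 0.01 and 0.02. The counts of all genes called in embryoids moved with it, with 1040 higher and 1145 lower as deposited against 1303 higher and 861 lower after that scaling at D7, and 1398 higher and 1322 lower as deposited against 1603 higher and 998 lower after that scaling at D8. Under that scaling no member called between embryoids and controls was lost. Quantile normalization moved the median to -0.05 at D7 and -0.07 at D8, and under it Lhx3, Lhx4 and Lmx1b were no longer called at D8.

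Embryoids and controls differed in which members of the family were listed highest. Controls listed Lhx2, Lhx5, Lhx9 and Lhx1, the members of forebrain and dorsal neurons, at 3 or above in every library. Embryoids listed Isl1 highest on both days. Summed over the 10 members, the level was 12 to 16 in D7 embryoids, against 47 to 57 in D7 controls, and 28 to 34 in D8 embryoids, against 102 to 112 in D8 controls. Lhx1, Lhx2, Lhx5 and Lhx9 together made up 12.5 to 16.7% of that sum in D7 embryoids, against 93.6 to 94.7% in D7 controls, and 28.6 to 44.1% in D8 embryoids, against 97.1 to 97.3% in D8 controls. Isl1 and Lmx1b made up 83.3 to 87.5% in D7 embryoids, against 3.51 to 4.26% in D7 controls, and 41.2 to 57.1% in D8 embryoids, against 1.79 to 1.96% in D8 controls. In bulk samples fewer cells of a type and less RNA per cell cannot be told apart.

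**Figure D1:**
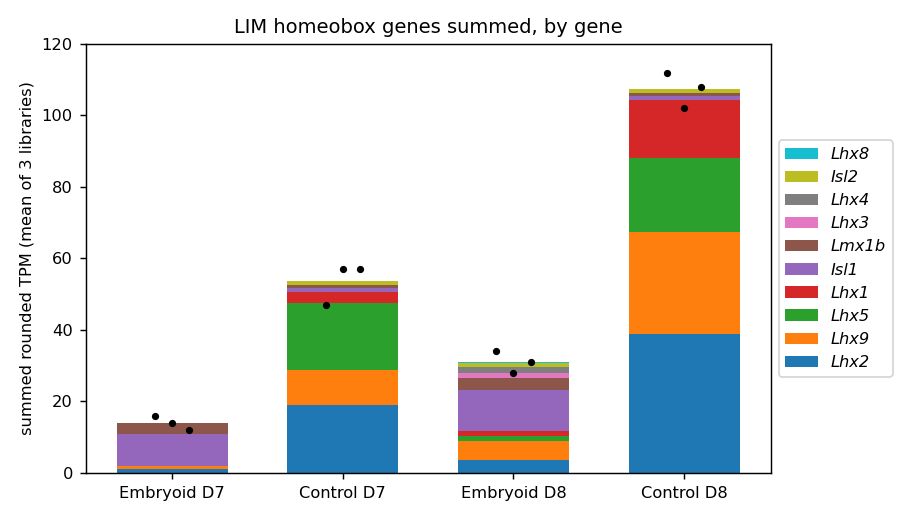
Stacked bars give the mean rounded TPM of each LIM homeobox gene over 3 libraries, by group (x axis), and black points give the summed value of each library. Control bars are mostly Lhx2, Lhx9, Lhx5 and Lhx1, embryoid bars are led by Isl1, and the D8 sums (28 to 34 in embryoids, 102 to 112 in controls) lie above the D7 sums (12 to 16 and 47 to 57).

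At D7, 1 of the 8 tested members was called higher in embryoids and 4 were called lower, where 7.56% of all tested genes were called higher and 8.33% lower (15.9% in either direction). At D8, 4 were called higher and 4 lower, where 10.2% of all tested genes were called higher and 9.61% lower (19.8% in either direction). All members called higher had passed the filter only through embryoids, and nothing is read from their number. Of the 6 members other than Lhx3 and Lhx4, 2 were called higher and 4 lower at D8. Quantile normalization left 1 higher and 4 lower at D8. Without D8 embryoid replicate 1 the number called higher at D8 was 2, since Lmx1b was no longer called and Lhx3 no longer passed the filter, and without D7 embryoid replicate 2 the number called higher at D7 was 2. Over the members above 0 in both conditions the median log2 fold change was -0.72 at D7 (4 genes, Isl1, Lhx2, Lhx9 and Lmx1b). At D8 it was -2.64 (6 genes, the same with Lhx1 and Lhx5 added). Lhx1 and Lhx5 were left out at D7 because D7 embryoids listed them at 0. The medians cover different genes, so they do not describe a change between the days. Each also mixes genes of opposite direction, with Isl1 and Lmx1b among them, whose direction the filter fixed, so neither describes a typical member. Embryoid and control values did not overlap for 61.1% of all tested genes at D7 and for 73.3% at D8, so the absence of overlap by itself says little of a single gene.

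**Figure D2:**
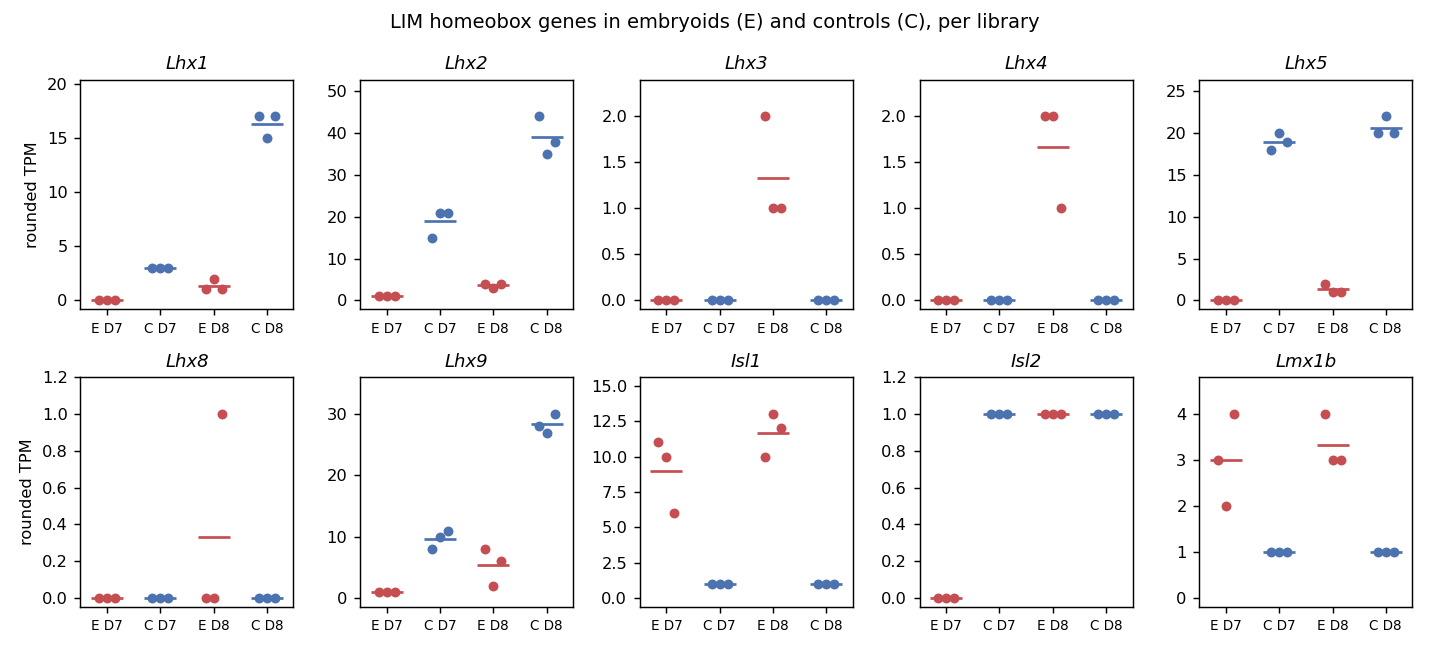
Each panel plots the rounded TPM (y axis, own scale) of one LIM homeobox gene in every library, with embryoids (E, red) left of controls (C, blue) at D7 and then D8, and lines at the group means. Lhx1, Lhx2, Lhx5 and Lhx9 stand higher in controls, Isl1 and Lmx1b stand higher in embryoids, and Lhx3 and Lhx4 are above 0 only in D8 embryoids, at 1 or 2.

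Lhx2, a regulator of eye and cortex that lies on chromosome 2 from 38339271 to 38369737, had the highest level of the members in D8 controls. At D7 it stood at 1, 1 and 1 in embryoids, against 15, 21 and 21 in controls. At D8 it was listed at 4, 3 and 4 in embryoids, against 44, 35 and 38 in controls. All embryoid libraries lay far below all control libraries on both days. Embryoids differed from controls by -3.31 on the log2 scale (standard error 0.14, adjusted p = 4.23e-09) at D7 and -3.10 (standard error 0.14, adjusted p = 5.99e-09) at D8.

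Lhx9, the closest relative of Lhx2, which acts in dorsal commissural interneurons, the diencephalon and the gonad, lies on chromosome 1 from 138825186 to 138848839. The D7 values were 1, 1 and 1 in embryoids, against 8, 10 and 11 in controls. The D8 values were 8, 2 and 6 in embryoids, against 28, 27 and 30 in controls. The groups did not overlap on either day, and the D8 embryoids were the most spread of the groups. The log2 fold change was -2.40 (standard error 0.31, adjusted p = 3.76e-05) at D7 and -2.35 (standard error 0.31, adjusted p = 3.75e-05) at D8.

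Lhx5, a gene of the early forebrain and of the hippocampal primordium, lies on chromosome 5 from 120431886 to 120441457. All 3 D7 embryoids listed it at 0, against 18, 20 and 19 in D7 controls. In D8 embryoids it reached 2, 1 and 1, against 20, 22 and 20 in D8 controls. The difference was called at D7 (adjusted p = 5.29e-10), and at D8 the log2 fold change was -3.24 (standard error 0.14, adjusted p = 4.77e-09). Of these 4 genes Lhx5 differed least between the days in controls, with means of 20.7 ± 1.15 (SD, n = 3) at D8 and 19.0 ± 1.00 at D7.

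Lhx1, which acts in the head organizer, in intermediate mesoderm and in several classes of neurons, lies on chromosome 11 from 84517975 to 84525534. It was listed at 0 in all 3 D7 embryoids, against 3, 3 and 3 in D7 controls. At D8 it was listed at 1, 2 and 1 in embryoids, against 17, 15 and 17 in controls. The log2 fold change at D8 was -2.92 (standard error 0.15, adjusted p = 1.54e-08), and the D7 difference was called with a pseudocount of 1 (adjusted p = 4.11e-07) but not with one of 5. Markers of intermediate mesoderm went the other way, with 4 of the 5 tested genes of a list of 6 called higher in embryoids on each day and none lower. That list summed to 109 to 158 in D7 embryoids, against 19 to 25 in D7 controls, and to 86 to 122 in D8 embryoids, against 17 to 19 in D8 controls. Most of the embryoid sum was Sall1, at 126, 86 and 105 in D7 embryoids and at 63, 98 and 79 in D8 embryoids. Osr1, Pax2, Pax8 and Wt1 stood at 1 to 8 in embryoids. Of the tested genes, Osr1, Pax8 and Wt1 passed the filter only through embryoids.

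Markers of forebrain, like these 4 genes, were lower in embryoids than in controls. Of a list of 11 forebrain and eye field genes, all 8 that were tested were called lower in embryoids on both days, and the list summed to 3 to 6 in D7 embryoids, against 716 to 749 in D7 controls, and to 5 to 10 in D8 embryoids, against 731 to 758 in D8 controls. Hesx1, a gene of the anterior neural plate, was listed at 0 in all 12 libraries. Pan-neuronal genes were lower too, 5 of 6 at D7 and 6 of 6 at D8. Their sum was 113 to 199 in D7 embryoids, against 855 to 904 in D7 controls, and 259 to 541 in D8 embryoids, against 1871 to 1981 in D8 controls. The part of regional identity and of neuron number in the member differences was not tested.

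Isl1, a gene of second heart field progenitors, motor neurons and sensory neurons, was the member that stood highest in embryoids. It lies on chromosome 13 from 116298270 to 116309688. It was listed at 11, 10 and 6 in D7 embryoids, against 1, 1 and 1 in D7 controls. At D8 it was listed at 10, 13 and 12 in embryoids, against 1, 1 and 1 in controls. Every embryoid library, the lowest at 6, lay above every control. The log2 fold change was 2.28 (standard error 0.17) at D7 and 2.66 (standard error 0.17) at D8. Isl1 passed the filter only through embryoids, so this direction was fixed by the filter and the values are a description.

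Markers of the tissues known to use Isl1 were read beside it. Of 9 genes of second heart field and heart, all 8 that were tested were called higher in embryoids on each day. All 8 passed the filter only through embryoids, which fixed their direction. The list summed to 160 to 415 in D7 embryoids, against 0 in D7 controls, and to 346 to 874 in D8 embryoids, against 2 in D8 controls. Most of the embryoid sum was Tnnt2, at 139, 374 and 138 in D7 embryoids and at 507, 756 and 280 in D8 embryoids. Tbx1, the gene not tested, was at 1 in each D7 embryoid library and at 0 in all D8 embryoids and all controls. Fgf10 and Mef2c, which ISL1 is known to activate in the second heart field, were listed at 4, 4 and 3 and at 6, 5 and 6 in D7 embryoids, against 0 in D7 controls. At D8 Fgf10 was listed at 8, 8 and 9 in embryoids, against 0 in controls, and Mef2c at 8, 10 and 6, against 1, 1 and 1. Both were called higher on each day, in the direction that the filter had fixed, so these values are a description. Of 4 tested genes in a list of 9 on motor neurons and V2 interneurons, 3 were called higher in embryoids on each day, Nkx6-1, Gata2 and Gata3, of which the GATA factors also act outside the nervous system. These 3 too passed the filter only through embryoids, which fixed their direction. That list summed to 10 to 12 in D7 embryoids, against 1 in D7 controls, and to 8 to 20 in D8 embryoids, against 1 to 2 in D8 controls. Among its other members Chat, the acetylcholine-synthesizing enzyme, was listed at 0 in all 12 libraries, and Mnx1, a motor neuron gene that ISL1 and LHX3 activate together, was at 1, 1 and 0 in D7 embryoids, against 0 in D7 controls, and at 1, 1 and 0 in D8 embryoids, against 0 in D8 controls. For sensory ganglia and neural crest, Sox10 was listed at 4, 3 and 5 in D7 embryoids, against 0 in D7 controls, and at 8, 3 and 9 in D8 embryoids, against 0 in D8 controls. Pou4f1, a sensory neuron gene, was at 0 in all 6 embryoid libraries. Which cells carried the Isl1 transcripts was not tested.

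Lmx1b, a gene of the midbrain-hindbrain boundary, the hindbrain serotonergic neurons and the dorsal limb, lies on chromosome 2 from 33560965 to 33641208. It was listed at 3, 2 and 4 in D7 embryoids, against 1, 1 and 1 in D7 controls. The D8 values were 4, 3 and 3 in embryoids, against 1, 1 and 1 in controls. Both days showed embryoids above controls without overlap, by a few units. Its log2 fold change was 0.97 (standard error 0.17) at D7, just short of the call, and 1.11 (standard error 0.17) at D8, where it was called. Lmx1b too passed the filter only through embryoids, so this direction was fixed by the filter and the values are a description. Without D7 embryoid replicate 2 the D7 value was 1.16 and called, and without D8 embryoid replicate 1 the D8 value was 1.00 and not called. Rounding alone allows a D8 difference from 0.61 to 1.68 on this scale.

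Lmx1a, the paralog of Lmx1b and no member of the set, went the opposite way. It was listed at 3, 4 and 4 in D7 embryoids, against 83, 94 and 89 in D7 controls, and at 7, 3 and 5 in D8 embryoids, against 119, 115 and 122 in D8 controls. For Lmx1a the log2 fold change was -4.27 (standard error 0.19, adjusted p = 8.07e-09) at D7 and -4.37 (standard error 0.19, adjusted p = 5.63e-09) at D8. Within this pair of paralogs the D8 controls thus listed Lmx1a above 100 and Lmx1b at 1, whereas D8 embryoids listed both at 3 to 7. Lhx6, which completes the family with Lmx1a, was at 1 in all 12 libraries and was not tested. Genes of the midbrain-hindbrain boundary, where Lmx1b acts, went both ways. En1 and En2 were listed at 0 in all 6 embryoid libraries, and in controls at 1 or 2. Pax8, which also acts in intermediate mesoderm, was listed at 5, 2 and 4 in D7 embryoids, against 0 in D7 controls, and at 2, 2 and 2 in D8 embryoids, against 0 in D8 controls. The 7 listed boundary genes summed to 16 to 20 in D7 embryoids, against 18 to 22 in D7 controls. They summed to 14 to 26 in D8 embryoids, against 10 to 12 in D8 controls. Wnt1, which is among them, stood at 21, 6 and 13 in D8 embryoids.

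**Figure D3:**
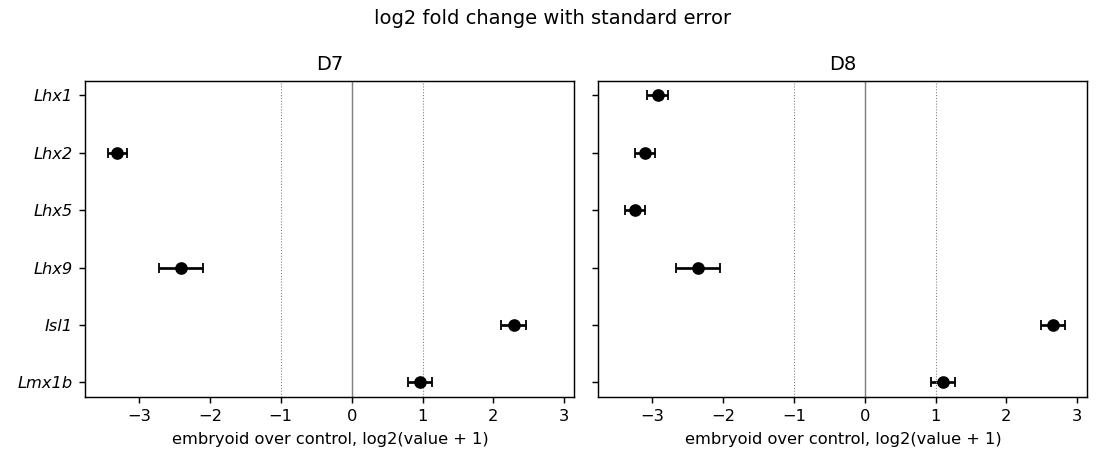
Points give the log2 fold change of embryoids over controls on log2(value + 1) (x axis) with the standard error from limma, at D7 (left) and D8 (right), for members above 0 in both conditions on that day; dotted lines mark 1 and -1. Lhx2 and Lhx9 lie at -3.31 and -2.40 at D7, Lhx1, Lhx2, Lhx5 and Lhx9 lie between -3.24 and -2.35 at D8, and Isl1 lies at 2.28 and 2.66.

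Lhx3 and Lhx4, a pair of paralogs of the pituitary, of motor neurons and of V2 interneurons, appeared only in D8 embryoids. Lhx3, on chromosome 2 from 26200212 to 26208249, was listed at 2, 1 and 1 in D8 embryoids, against 0 in D8 controls. Lhx4, on chromosome 1 from 155698031 to 155751726, was listed at 2, 2 and 1 in D8 embryoids, against 0 in D8 controls. Both were listed at 0 in all D7 libraries. No test is given for either gene, since the filter admitted them through the group in which they were above 0, and no fold, since the controls were at 0. Rounding allows a D8 difference from 0.25 to 1.48 for Lhx3 and from 0.49 to 1.65 for Lhx4 on the log2(value + 1) scale. Pou1f1, which defines a pituitary lineage, was listed at 0 in all 12 libraries. Nkx6-1, of ventral progenitors that give rise to motor neurons and V2 interneurons, was at 5, 6 and 2 in D8 embryoids, against 0 in D8 controls.

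Isl2 and Lhx8 stayed at the floor. Isl2, a paralog of Isl1 in motor neurons and retinal ganglion cells on chromosome 9 from 55538677 to 55547667, was listed at 0, 0 and 0 in D7 embryoids, against 1, 1 and 1 in D7 controls, and at 1 in all D8 libraries. Lhx8, a gene of cholinergic neurons of the ventral forebrain and of oocytes on chromosome 3 from 154306288 to 154330560, was listed at 1 in D8 embryoid replicate 3 and at 0 in the other 11 libraries. Neither was tested, and for Isl2 at D7 rounding allows a difference from -1.32 to 0.00 on the log2(value + 1) scale.

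The order of the members within a group followed the condition. In D7 embryoids Isl1 (6 to 11) stood above Lmx1b (2 to 4), and Lhx2 and Lhx9 tied at 1. In D7 controls Lhx2 (15 to 21) and Lhx5 (18 to 20) overlapped, and both stood above Lhx9 (8 to 11) and Lhx1 (3). In D8 embryoids Isl1 (10 to 13) came first, Lhx9 (2 to 8), Lhx2 (3 to 4) and Lmx1b (3 to 4) overlapped, and Lhx1, Lhx3, Lhx4 and Lhx5 shared the range 1 to 2. In D8 controls Lhx2 (35 to 44), Lhx9 (27 to 30), Lhx5 (20 to 22) and Lhx1 (15 to 17) stood in that order without overlap between neighbours, and Isl1, Isl2 and Lmx1b were at 1.

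From D7 to D8 Lhx1, Lhx2, Lhx5 and Lhx9 rose in embryoids, where their D7 level was at 0 or 1. Of the 6 members other than Lhx3 and Lhx4, 4 were called higher at D8 in embryoids and none lower, where 2.53% of all tested genes were called higher and 0.131% lower (2.66% in either direction). For Lhx2 the D8 embryoids stood at 3.67 ± 0.577 (SD, n = 3) and the D7 embryoids at 1 in each library, which is 1.21 on the log2 scale (standard error 0.14, adjusted p = 0.00026). For Lhx9 the change was 1.52 (standard error 0.31, adjusted p = 0.00549), and a fit of the 6 embryoid libraries alone did not call it (adjusted p = 0.0617). Lhx1 (adjusted p = 0.000352) and Lhx5 (adjusted p = 0.000295) were listed at 1 or 2 in all D8 embryoids and at 0 in all D7 embryoids, a step of 1 or 2 units. Without D8 embryoid replicate 2 the Lhx1 change was 1.00 and without D8 embryoid replicate 1 the Lhx5 change was 1.00, and neither was then called. With a pseudocount of 5 none of the 4 was called, and after quantile normalization Lhx1 (0.780), Lhx2 (0.989) and Lhx5 (0.780) were not. Isl1 (0.37, standard error 0.17, adjusted p = 0.157) and Lmx1b (0.14, standard error 0.17, adjusted p = 0.605) did not pass the test.

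In controls 3 members were called higher at D8 and none lower, where 2.53% of all tested genes were called higher and 0.204% lower (2.73% in either direction). Lhx1 had 16.3 ± 1.15 (SD, n = 3) in D8 controls and 3 in each D7 control, which is 2.11 on the log2 scale (standard error 0.15, adjusted p = 5.38e-06). Lhx9 had 28.3 ± 1.53 in D8 controls and 9.67 ± 1.53 in D7 controls, which is 1.47 on the log2 scale (standard error 0.31, adjusted p = 0.00495). Lhx2 had 39.0 ± 4.58 in D8 controls and 19.0 ± 3.46 in D7 controls, which is 1.01 on the log2 scale (standard error 0.14, adjusted p = 0.000372) and sits on the fold threshold. It fell below that threshold with median-of-ratios scaling (0.947), with quantile normalization (0.902), with a pseudocount of 5 (0.880), without D7 control replicate 1 (0.856) and without D8 control replicate 1 (0.921). Lhx5 did not pass the test (0.12, standard error 0.14, adjusted p = 0.619). Pan-neuronal genes were higher at D8 in both conditions, 5 of 6 called in embryoids and 5 of 6 in controls, and all 7 Cajal-Retzius and early forebrain neuron genes were called higher in controls, against 1 of 7 in embryoids. The part of neuron number in the rise of the members was not tested.

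The change of the embryoid against control difference from D7 to D8 was tested directly. Of the 6 members other than Lhx3 and Lhx4 it was called upward for 1, Lhx5, and downward for none, where 1.61% of all tested genes were called upward and 0.894% downward (2.51% in either direction). For Lhx5 the D7 embryoids listed at 0 enter the term, so its size depends on the pseudocount. The call was lost with a pseudocount of 5 (0.240), with quantile normalization (0.782) and without D8 embryoid replicate 1 (0.885). For Lhx1 the change was -0.92 (standard error 0.21, adjusted p = 0.0217), short of the fold threshold. Without D8 embryoid replicate 2 it was -1.11 and called. For Lhx2, Lhx9, Isl1 and Lmx1b the change lay between 0.05 and 0.37 and did not pass the test (adjusted p of 0.413 to 0.971).

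Among the D8 embryoids Lhx9 varied with genes of dorsal interneurons and with pan-neuronal genes. Lhx9 was listed at 8, 2 and 6 in replicates 1, 2 and 3. Atoh1, which specifies the dorsal-most interneurons that use Lhx2 and Lhx9, was listed at 13, 2 and 7 in the same libraries. Barhl1 was listed at 7, 1 and 3, Barhl2 at 5, 1 and 2 and Olig3, a gene of dorsal progenitors, at 27, 6 and 20. These are the 4 tested genes of a list of 9 on dorsal interneurons, and each was lowest in replicate 2 and highest in replicate 1. The untested genes of that list were at 0 or 1 there, among them Lbx1 at 1, 1 and 0 and Foxd3 at 1, 0 and 1. Robo3, a receptor of commissural axons that LHX2 and LHX9 are known to regulate, was listed at 13, 7 and 14, and Tubb3, the neuronal tubulin, at 463, 213 and 286. Dcx (9, 6 and 7), Elavl3 (8, 5 and 6) and Stmn2 (51, 29 and 32) were also lowest in replicate 2 and highest in replicate 1. This order was thus not particular to dorsal interneuron genes. Isl1 did not follow them, at 10, 13 and 12, and Tnnt2, the cardiac troponin T gene, was highest in replicate 2, at 507, 756 and 280. In controls Atoh1 and Olig3 were listed at 0 in all 6 libraries, whereas Barhl2 reached 7, 6 and 6 in D7 controls, with 20, 19 and 21 in D8 controls. With 3 libraries this is a description and was not tested.

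**Figure D4:**
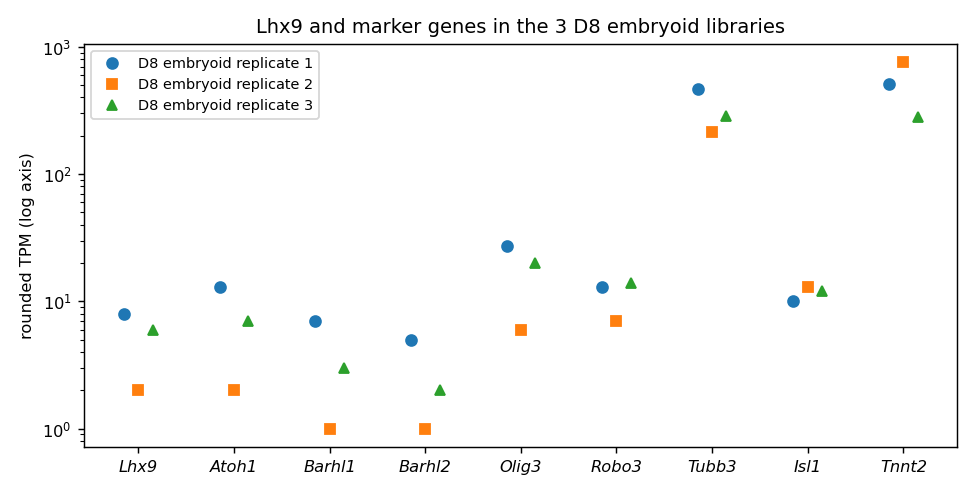
Symbols give the rounded TPM (log axis) of Lhx9, of the 4 tested dorsal interneuron genes, of Robo3 and Tubb3, and of Isl1 and Tnnt2 in the 3 D8 embryoid libraries. Replicate 2 is lowest for Lhx9 (2), Atoh1 (2), Barhl1 (1), Barhl2 (1), Olig3 (6), Robo3 (7) and Tubb3 (213), and highest for Isl1 (13) and Tnnt2 (756).

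The main cofactors of the family were present in both conditions, with Ldb1, Ssbp2 and Ssbp3 listed above 100 in every library. Ldb1, the LDB protein of most tissues, was listed at 216, 199 and 229 in D7 embryoids, against 275, 291 and 274 in D7 controls, and at 199, 216 and 219 in D8 embryoids, against 298, 315 and 323 in D8 controls. Its log2 fold change of -0.38 at D7 and -0.56 at D8 was short of the fold threshold. Of 6 cofactor genes (Ldb1, Ldb2, Ssbp2, Ssbp3, Ssbp4 and Rlim) 1 was called higher on each day and none lower. That gene was Ldb2, at 11, 11 and 13 in D7 embryoids, against 1, 1 and 1 in D7 controls, and at 16, 14 and 20 in D8 embryoids, against 1, 1 and 1 in D8 controls. The log2 fold change of Ldb2 was 2.66 (standard error 0.12) at D7 and 3.13 (standard error 0.12) at D8. With controls at 1, Ldb2 passed the filter only through embryoids, so these values are a description.

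The LIM-only genes differed among themselves. Of Lmo1, Lmo2, Lmo3 and Lmo4, 2 were called lower in embryoids on each day and none higher, Lmo1 and Lmo3 at D7 and Lmo2 and Lmo3 at D8. Lmo2, known for its role in blood and vessels, was listed at 12, 13 and 11 in D7 embryoids, against 13, 14 and 12 in D7 controls, and at 13, 13 and 9 in D8 embryoids, against 50, 57 and 57 in D8 controls. It was called higher at D8 than at D7 in controls (log2 fold change 1.99, standard error 0.13, adjusted p = 2.58e-06). Lmo4 was higher in embryoids in all libraries, at 131, 122 and 122 in D7 embryoids, against 67, 68 and 67 in D7 controls, with a log2 fold change of 0.88 that was not called. Its D8 values were 113, 118 and 132 in embryoids, against 93, 86 and 89 in controls.

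**Figure D5:**
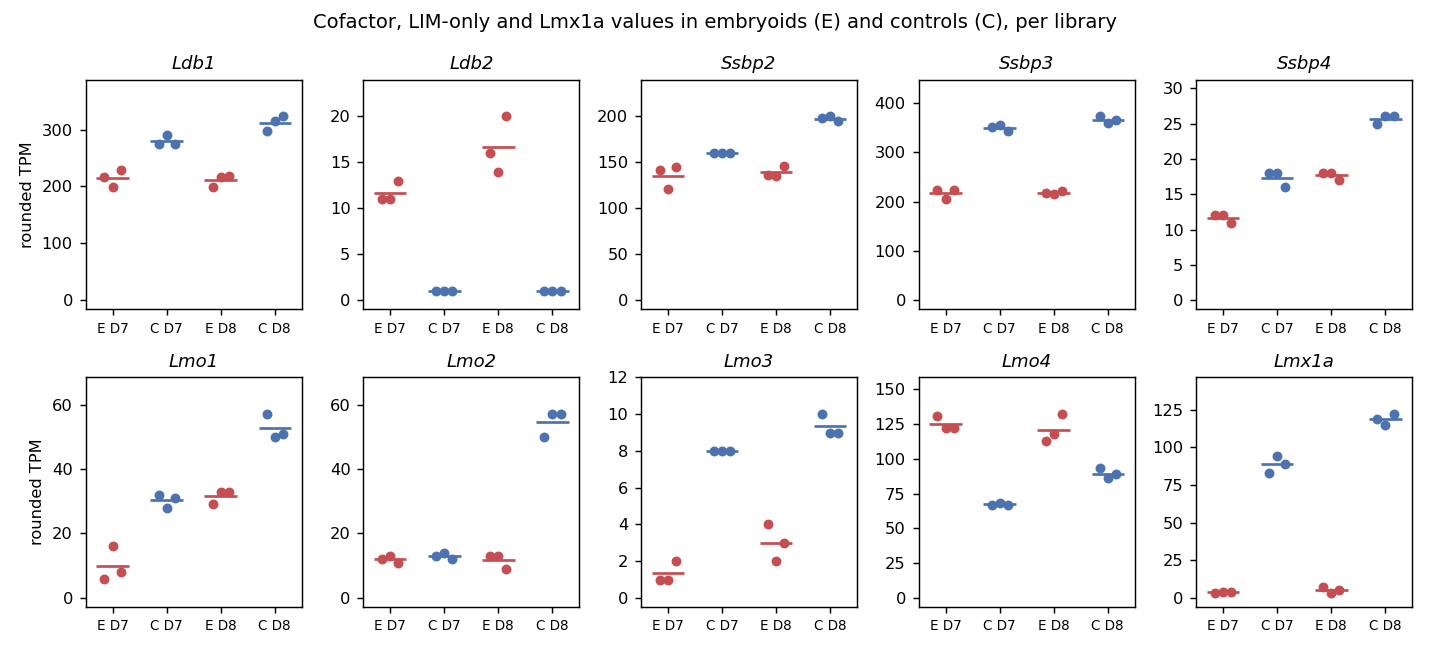
Each panel plots the rounded TPM (y axis, own scale) of one gene in every library, embryoids (E, red) left of controls (C, blue) at D7 and then D8, with lines at group means. Ldb2 is higher in embryoids (11 to 20 against 1), Lmo2 is high only in D8 controls (50 to 57), and Lmx1a is high in controls (83 to 122) and at 3 to 7 in embryoids.

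Genes known to be regulated by LIM homeodomain factors did not share a direction. Of 6 listed, 5 were tested, with 2 called higher in embryoids (Fgf10 and Mef2c) and 1 lower (Robo3) at D7, and 3 higher (Fgf10, Mef2c and Wnt1) and none lower at D8. Fgf10 and Mef2c passed the filter only through embryoids, so nothing is read from the direction of their calls. Robo3 was listed at 1, 1 and 4 in D7 embryoids, against 5, 5 and 5 in D7 controls, and at 13, 7 and 14 in D8 embryoids, against 17, 21 and 21 in D8 controls. Wnt1, which LMX1B is known to maintain at the midbrain-hindbrain boundary, was listed at 4, 5 and 6 in D7 embryoids, against 8, 7 and 6 in D7 controls, and at 21, 6 and 13 in D8 embryoids, against 3, 4 and 4 in D8 controls. Fgf8, a signal of the same boundary, did not pass the test on either day (adjusted p = 0.316 at D7 and 0.559 at D8). The paper also uses Wnt1 as a marker of the dorsal neural tube. In D8 embryoids Wnt1, like the 4 tested dorsal interneuron genes, was lowest in replicate 2 and highest in replicate 1. Which cells carried the Wnt1 transcripts was not tested.

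Markers of other tissues that use these genes were counted the same way. Of 4 tested sensory neuron and neural crest genes, 2 were higher and 1 lower on each day. Of 6 tested midbrain-hindbrain boundary genes, D7 embryoids had 1 higher with 3 lower, while D8 embryoids had 2 higher with 1 lower. Of 2 tested pituitary primordium genes, 1 was higher at D7 and 2 at D8. Of 6 tested node, notochord and endoderm genes, 5 were higher at D7 and 4 at D8, with none lower. Of 4 tested dorsal interneuron genes, 2 were higher and 1 lower on each day, and of 7 Cajal-Retzius and early forebrain neuron genes 4 were lower at D7 and 5 at D8, with none higher.

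The genes whose pattern over the 12 libraries was most like a member were taken by Pearson correlation of log2(value + 1), as a description, since the libraries share condition and day and many genes follow these. For Lhx1 they were Nrsn2 (0.995), Gdap1 (0.995) and Syt1 (0.995), of which Syt1 encodes the synaptic vesicle protein synaptotagmin. Nrn1 (0.993), AI413582 (0.991) and Barhl2 (0.990) came closest to Lhx9. Among those closest to Lhx2 were 6430548M08Rik (0.997) and Wsb2 (0.997). For Isl1 they were Alox5ap, Hand1 and Ccdc80 (0.997 to 0.998), of which Hand1 is a gene of lateral plate and cardiac mesoderm. A correlation above 0.95 was reached by 1397 tested genes with Lhx2, 1201 with Lhx5, 796 with Isl1, 491 with Lhx1 and 335 with Lhx9, so the named genes are the top of long lists.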

How the data were processed

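Bulk RNA was sequenced as single-end reads of 75 bp from 12 libraries. The authors aligned the reads to mm10 with STAR 2.6.1a, and SAMtools 0.1.20, featureCounts and DESeq2 are named in the submitters' processing notes. The deposited values are called a score here because the unit was inferred: whole numbers with near-equal sums in each library, taken as TPM rounded by the authors. TPM keeps no depth, so counting error was not computed. Values were tested as log2(value + 1) for the 13751 genes whose mean exceeded 1 in some group, in one limma 3.58.1 model of 4 group means (R 4.3.3, statmod 1.5.0, trended and robust variances), with Benjamini-Hochberg adjustment over all tested genes. Fold changes of exactly 1 were not called. The study calls its replicates biologically independent, while the labels do not say whether cultures were separate. No pair of libraries was identical. The test was checked on simulated data. Plots used matplotlib 3.10.9 and Python 3.11.15. The members and the gene lists were chosen with earlier results of these data known. All members are named, as are genes of the lists on cofactors, LIM-only proteins, targets and tissue markers, and, for 4 members, genes among the 3 most correlated with each. Some genes that these rules name are not reported here. Hprt and Tgoln2 were chosen after their values were seen. Alternatives were another pseudocount, filter, scaling or variance model, no minimum fold, the compared libraries alone, a replicate block and leaving out each library.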

Additional observations from a re-analysis of the deposited data

Results flagged for a closer look

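For Lhx5 the change in the embryoid against control difference from D7 to D8 passed the test of that change, at 1.08 (standard error 0.20, adjusted p = 0.00798), from 2, 1 and 1 in D8 embryoids, against 20, 22 and 20 in D8 controls, and 0 in D7 embryoids, against 18, 20 and 19 in D7 controls. The embryoid values moved by 1 or 2 rounded units. The call was lost with a pseudocount of 5 (0.240), with quantile normalization (0.782) and without D8 embryoid replicate 1 (0.885). The same term was 1.19 for Lhx3 and 1.39 for Lhx4, which were listed above 0 only in D8 embryoids, at 2, 1 and 1 and at 2, 2 and 1. Both passed the filter only through that group, so these values are a description, and neither term was called with a pseudocount of 5 (0.337 and 0.411) or with quantile normalization (0.780 and 1.06).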

How the results depend on the processing

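The lower calls at D8 (Lhx1, Lhx2, Lhx5 and Lhx9) held under every alternative run. The higher call of Isl1 held too, on both days. Over the settings other than leaving out a library Isl1 lay at 1.20 to 2.62 at D7 and 1.47 to 3.01 at D8. In the main fit Isl1 passed the filter only through embryoids, so its higher call is a description. The counts that follow are over all 8 tested members, Lhx3 and Lhx4 included. The number of members called higher at D7 became 2 with a pseudocount of 0.5, with median-of-ratios scaling and with no minimum fold, and 1 to 2 when single libraries were left out. At D8 it became 1 with a pseudocount of 5, with a filter above 5 and with quantile normalization, and 2 to 4 when libraries were left out. The filter above 5 leaves Lhx3, Lhx4 and Lmx1b out of the test. For the change between the days, members called upward became 0 with a pseudocount of 5 and with quantile normalization and 1 with a filter above 5 (1 to 3 without single libraries), and members called downward became 1 with a pseudocount of 5, quantile normalization and no minimum fold (0 to 1 without single libraries), which was Lhx1. Members rising in embryoids became 0 with a pseudocount of 5 and 2 with quantile normalization. Signs turned only for values not called. These were the change term of Lhx2 (-0.352) and Lhx9 (-0.451) with a pseudocount of 5, that of Lmx1b (-0.173) and the embryoid day difference of Lmx1b (-0.173) with quantile normalization, and the control day difference of Lhx5 (-0.0014) with quantile normalization. Without D7 control replicate 3 and without D8 embryoid replicates 1 and 3 the Lhx9 change term was -0.0378, -0.272 and -0.091, and without D7 embryoid replicate 2 the change term and the embryoid day difference of Lmx1b were both -0.0537. Over all single libraries left out, the Lhx9 change term ranged to 0.520 and both Lmx1b values to 0.315. The causes were not tested. With the replicate block the members called were 1 higher and 4 lower at D7 and 4 and 4 at D8, as without it, and no call of a member changed. The numbers do not pair the samples: deviations of same-numbered libraries correlated at -0.19 to 0.0759 over 18 pairs, and a library matched its own number best in 7 of 36 comparisons. Rounding to whole units limits every value at 0, 1 or 2.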
